A study of Mus musculus with 8 samples.

Results

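The immunoglobulin constant genes by isotype are 10 genes: the heavy chain genes Ighm, Ighd, Igha, Ighg1, Ighg2b, Ighg2c and Ighg3, the light chain genes Igkc and Iglc1, and Jchain, out of 54532 genes in the table. All 10 were found by gene name, with 1 entry each, and all passed a filter of a mean of at least 10 counts. The genes were selected on measured values of these same 8 libraries: their levels, their isotype shares and their KO over WT ratios were known when they were chosen. Those values are given as a description, and no p-value is given for them.

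RNAseq counts came from mG+ (GFP+) cells that were sorted by FACS from female mice aged 8 months. WT mice carried Tie2e-cre, the mTmG reporter and TERT+/+. EC-Tert-KO mice (KO) carried the same Cre and reporter with TERTfl/fl, so that Cre and the reporter were shared by all groups. The mTmG reporter turns from membrane Tomato to membrane GFP in cells in which Cre has acted and in their progeny, and the study used the Tie2e promoter to drive Cre in EC. Cells came from subcutaneous adipose tissue (SAT) of mice on high fat diet (HFD) and, on chow, from SAT, intraperitoneal visceral adipose tissue (VAT) and gastrocnemius muscle. Each of these 4 pairs had 1 WT and 1 KO library, so no comparison within a pair had a replicate. Pooling of mice, and any sharing of mice between tissues, are not given in the sources used here.

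Library totals ran from 6214269 to 18855772 counts. Tert fell from 114 counts in WT to 0 in KO in HFD SAT, from 70 to 11 in chow SAT and from 24 to 7 in muscle. In VAT it had 3 counts in the library labelled WT and 9 in the library labelled KO, a log2 ratio of 0.90 with a counting interval from -1.02 to 3.50. These counts are too few to show a direction and do not show the lower Tert that the label KO would give. Each VAT direction below is therefore between libraries as labelled. Markers of several cell types were present in the sorted cells. The summed level of 10 endothelial genes ran from 272 to 1905 CPM (the count of a gene over the TMM-scaled library total, times 1000000), and that of 18 genes of the B cell receptor complex and B cell identity from 654 to 3856 CPM. None of these genes was at 0 in any library. The 2 SAT pairs had the lowest endothelial and the highest B cell sums. In these bulk libraries, fewer cells of a type and less RNA per cell cannot be told apart.

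An antibody joins heavy and light chains, each with a variable region that binds antigen and a constant region. The heavy chain constant gene sets the isotype. Naive B cells make IgM and IgD by splicing 1 long transcript to Ighm or to Ighd, and class switch recombination brings the variable exon next to a downstream constant gene and deletes the DNA between them. Igkc encodes the kappa constant region and Iglc1 a lambda constant region, and J chain links IgM and IgA into the polymers that antibody secreting cells release.

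The 7 heavy chain genes lie on the minus strand of chromosome 12 (GRCm38), in the order in which switching can reach them. Ighm comes first, at chr12:113418558-113422730, followed by Ighd, Ighg3, Ighg1, Ighg2b, Ighg2c and, last, Igha at chr12:113254830-113260236. Igkc is at chr6:70726435-70726966, Iglc1 at chr16:19061618-19062071 and Jchain at chr5:88519809-88527891. The coordinates of all 10 genes in the table equal those of GENCODE M21.

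The IgG subclasses differ most in the hinge, the flexible exon between the arms and the stem, whose cysteines link the heavy chains to each other. The hinge exons are shown because the subclass shares below rest on telling these genes apart. They are coding exons read from GENCODE M21 transcripts, 5′ to 3′ on the minus strand, with the in-frame cysteine codons in capitals.
Ighg3, chr12:113360529-113360576: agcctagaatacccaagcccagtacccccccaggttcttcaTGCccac
Ighg1, chr12:113329844-113329882: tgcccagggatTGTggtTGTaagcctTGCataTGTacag
Ighg2b, chr12:113307261-113307326: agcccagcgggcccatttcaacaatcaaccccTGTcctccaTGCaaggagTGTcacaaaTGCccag
Ighg2c, chr12:113288263-113288325: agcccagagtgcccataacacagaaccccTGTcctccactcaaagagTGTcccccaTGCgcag
Ighg3 has 1 such codon, Ighg2c 3, and Ighg1 and Ighg2b 4 each. The first constant exons of the IgG genes, 291 bases each, were 78.4% to 79.0% identical between Ighg3 and the other genes and 87.6% to 88.3% among the other genes. Of the 50-base windows in the transcripts of each gene, 0.393% for Ighg1, 1.58% for Ighg3, 4.15% for Ighg2b and 5.49% for Ighg2c also occur in another gene, and 0 for Ighm, Ighd, Igha, Igkc, Iglc1 and Jchain. Reads from shared windows could have been counted for either IgG gene.

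Iglc1 is 1 of 3 lambda constant genes, and 90 bases near the start of each constant exon are shown for the lambda shares, with the positions at which the genes differ in capitals (GRCm38, minus strand).
Iglc1, chr16:19061980-19062069: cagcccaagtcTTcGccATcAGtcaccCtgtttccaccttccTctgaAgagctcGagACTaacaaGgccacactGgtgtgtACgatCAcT
Iglc2, chr16:19198761-19198850: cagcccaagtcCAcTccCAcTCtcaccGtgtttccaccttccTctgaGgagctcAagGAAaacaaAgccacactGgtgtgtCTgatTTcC
Iglc3, chr16:19065590-19065679: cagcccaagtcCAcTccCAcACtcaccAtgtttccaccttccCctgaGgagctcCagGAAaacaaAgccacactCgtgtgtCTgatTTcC
Over these bases Iglc2 and Iglc3 shared 85, Iglc1 and Iglc2 71, and Iglc1 and Iglc3 70. No 50-base window of Iglc1 occurs in another gene, while Iglc2 and Iglc3 share 43.

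IgM and IgD, the isotypes of naive B cells, were highest in chow SAT of WT. Ighm had 1016 CPM in WT and 1127 CPM in KO in HFD SAT, 2470 and 1364 in chow SAT, 545 and 939 in VAT, and 1079 and 1136 in muscle. The VAT library labelled WT was lowest for Ighm. Ighd had 297 CPM in WT and 421 in KO in HFD SAT, 679 and 427 in chow SAT, 29.1 and 24.6 in VAT, and 217 and 197 in muscle. Both VAT libraries lay far below all others for Ighd but not for Ighm. The ratio of Ighd to Ighm CPM was 0.0534 and 0.0262 in the VAT libraries labelled WT and KO and between 0.173 and 0.373 in the other 6 libraries.

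IgA, the main isotype of mucosal secretions, was lowest in HFD SAT of WT. Igha had 2.56 CPM in WT and 23.4 in KO in HFD SAT, 50.5 and 24.4 in chow SAT, 25.4 and 484 in VAT, and 86.7 and 245 in muscle. The VAT library labelled KO was highest, followed by muscle of KO. Jchain had 26.5 CPM in WT and 42.2 in KO in HFD SAT, 216 and 119 in chow SAT, 39.4 and 204 in VAT, and 173 and 162 in muscle. Jchain was thus lowest in HFD SAT and in the VAT library labelled WT.

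The IgG subclasses were each high in different libraries. Ighg3, an IgG that is switched to in responses to polysaccharides, had 3.76 CPM in WT and 21.4 in KO in HFD SAT, 116 and 1215 in chow SAT, 8.51 and 174 in VAT, and 1.70 and 11.7 in muscle. It was highest in SAT of KO mice on chow and higher in KO than in WT in each pair. Ighg1 had 16.3 CPM in WT and 0.95 in KO in HFD SAT, 53.1 and 21.3 in chow SAT, 0 and 21.4 in VAT, and 1165 and 309 in muscle. Its 2 muscle libraries lay above all others, and the 0 counts in the VAT library labelled WT set a limit of 0.336 CPM (3 counts).

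Ighg2b had 7.22 CPM in WT and 43.3 in KO in HFD SAT, 691 and 345 in chow SAT, 45.4 and 196 in VAT, and 514 and 447 in muscle. Ighg2c, the subclass that C57BL/6 mice carry in place of Ighg2a, had 231 CPM in WT and 337 in KO in HFD SAT, 271 and 94.2 in chow SAT, 17.2 and 40.7 in VAT, and 791 and 211 in muscle. In HFD SAT, Ighg2c overlapped its chow SAT levels, while both Ighg2b and both Ighg3 libraries lay below theirs.

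Igkc had 734 CPM in WT and 688 in KO in HFD SAT, 1886 and 1448 in chow SAT, 229.9 and 862 in VAT, and 1930 and 1064 in muscle. Chow SAT and muscle of WT were highest for Igkc. Iglc1 had 12.2 CPM in WT and 4.35 in KO in HFD SAT, 35.5 and 25.7 in chow SAT, 1.90 and 51.0 in VAT, and 58.4 and 36.0 in muscle. Corrected for gene length, Igkc was the highest of the 10 genes in all 8 libraries, from 432 CPM per kb in the VAT library labelled WT to 3628 CPM per kb in muscle of WT. Ighm came second in 7 libraries. In muscle of WT, Ighg2c had 596 CPM per kb and Ighm 572, with Ighg1 at 449. Ighg3 came next after Ighm in chow SAT of KO, at 484 CPM per kb, and last in both muscle libraries, at 0.676 and 4.64.

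**Figure D1:**
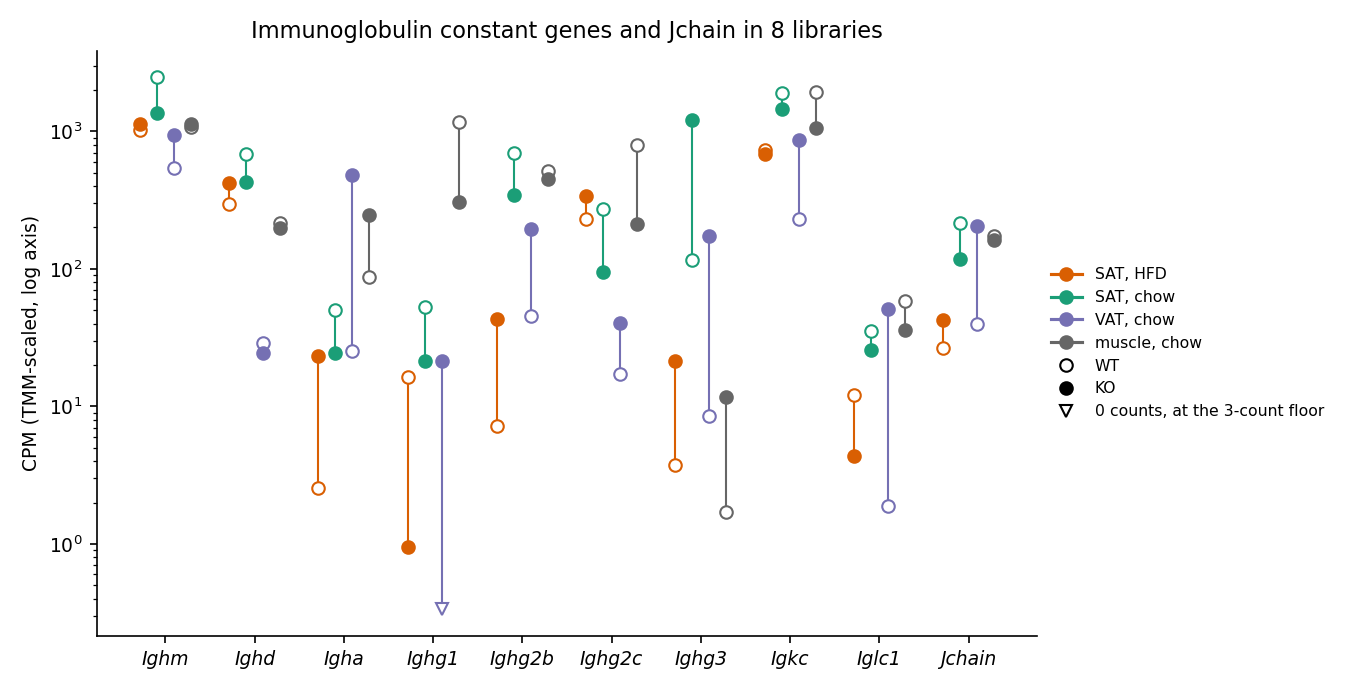
CPM (TMM-scaled, log axis) of the 10 genes in the 8 libraries, with open points for WT, filled points for KO and a line joining each pair; colours mark tissue and diet, and the triangle is a library with 0 counts drawn at its 3-count floor. Ighm and Igkc are high throughout, Ighd drops in VAT, and Ighg3 is higher in KO in all 4 pairs.

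Shares of the counts of the 7 heavy chain genes compare isotypes within a library and do not depend on the scaling between libraries. The intervals given with them are exact binomial (Clopper-Pearson) 95% intervals and cover counting error only. Ighm took 64.6% (63.6 to 65.5) of heavy chain counts in WT and 57.1% (56.5 to 57.7) in KO in HFD SAT. The Ighm share was 57.0% (56.7 to 57.4) and 39.1% (38.7 to 39.5) in chow SAT, 81.3% (80.3 to 82.3) and 49.9% (49.3 to 50.6) in VAT, and 28.0% (27.7 to 28.4) and 44.4% (43.9 to 45.0) in muscle. The share was lower in KO in the 3 adipose pairs and higher in KO in muscle, each time by more than the counting intervals.

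The switched isotypes together (Igha and the 4 IgG genes) took 16.6% of heavy chain counts in WT and 21.6% in KO in HFD SAT, 27.3% and 48.7% in chow SAT, 14.4% and 48.8% in VAT, and 66.4% and 47.9% in muscle. What made up the switched share differed from library to library. In SAT of KO mice on chow, Ighg3 alone took 34.8% (34.4 to 35.2) of heavy chain counts, against 2.68% (2.56 to 2.80) in WT. In the VAT library labelled KO, Igha took 25.7% (25.2 to 26.3), against 3.79% (3.32 to 4.31) in the library labelled WT. In muscle of WT, Ighg1 took 30.2% (29.9 to 30.6) and Ighg2c 20.5% (20.2 to 20.8), against 12.1% (11.7 to 12.4) and 8.27% (7.98 to 8.56) in KO. Per kilobase of gene length, Ighg2c led in muscle of WT with 30.5%, Ighm had 29.2% and Ighg1 23.0%.

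Within IgG, HFD SAT was nearly all Ighg2c, with 89.4% (87.9 to 90.9) of IgG counts in WT and 83.7% (82.7 to 84.7) in KO. On chow, Ighg2b led the IgG counts of SAT of WT with 61.1% (60.4 to 61.8), while Ighg3 led in KO with 72.5% (72.0 to 73.0). In VAT, Ighg2b led in both libraries, with 63.8% and 45.3% of IgG counts, and Ighg3 took 12.0% in WT and 40.3% in KO. In muscle, Ighg1 led the IgG counts in WT with 47.1% and Ighg2b in KO with 45.7%, and Ighg3 took 0.0687% and 1.19%. These shares are not corrected for gene length, and Ighg2c, with 1326 bases, is the shortest of the IgG genes. Per kilobase, Ighg2c led in muscle of WT, with 596 CPM per kb against 449 for Ighg1. In muscle of KO, Ighg2b and Ighg2c were then nearly level, at 167 and 159 CPM per kb. In the other libraries the leading IgG gene was the same per kilobase. Ighg1 had 0 of 5989 heavy chain counts in the VAT library labelled WT, where the exact interval allows a share of up to 0.0616%.

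**Figure D2:**
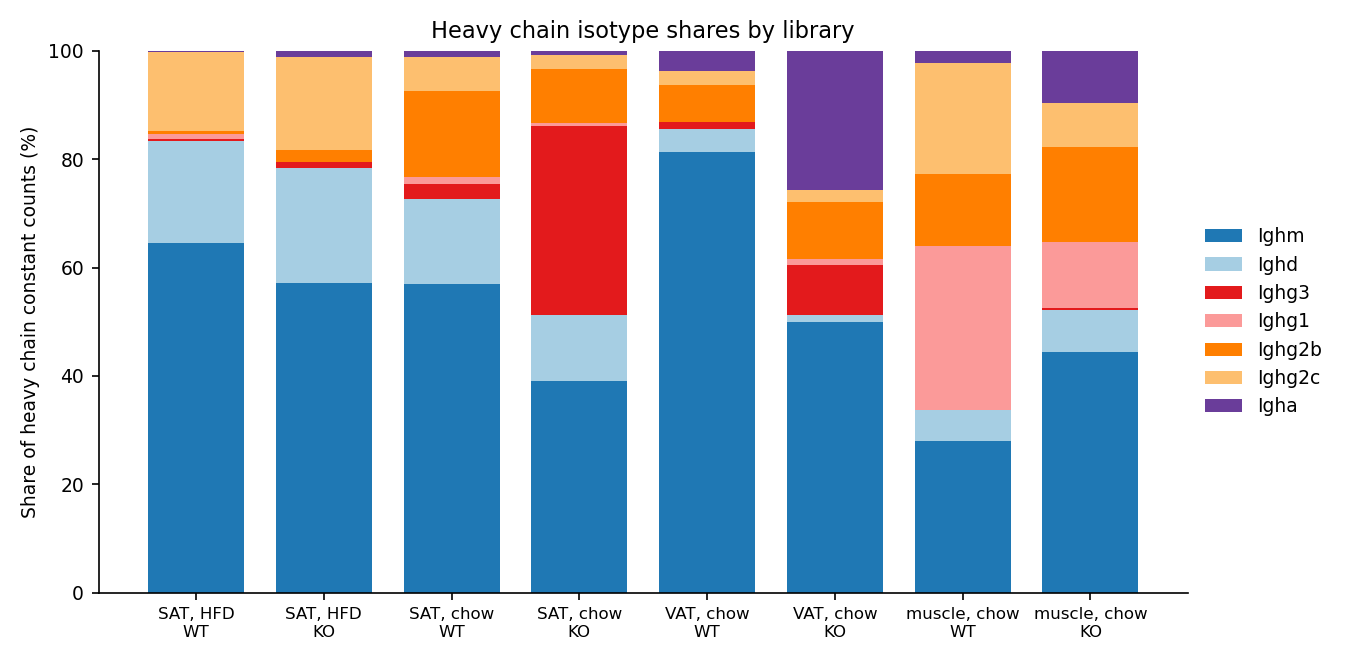
Share (%) of the summed counts of the 7 heavy chain constant genes taken by each gene, as stacked bars for the 8 libraries, with genes stacked in the order of the locus. Ighg3 fills 34.8% of the bar of SAT of KO on chow, Igha 25.7% of that of the VAT library labelled KO, and Ighg1 30.2% of muscle of WT.

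Kappa outweighed lambda in each library. Of the counts of Iglc1 and Igkc, Iglc1 took 1.63% (1.30 to 2.03) in WT and 0.629% (0.474 to 0.818) in KO in HFD SAT, 1.85% (1.702 to 2.001) and 1.74% (1.58 to 1.91) in chow SAT, 0.821% (0.479 to 1.31) and 5.59% (5.187 to 6.004) in VAT, and 2.94% (2.76 to 3.12) and 3.28% (2.998 to 3.571) in muscle. The VAT library labelled KO stood above the other 7, beyond the counting intervals, but with Iglc2 and Iglc3 added its lambda share of 7.46% was below that of 4 other libraries. Of the counts of all 3 lambda constant genes, Iglc1 took 73.4% (70.4 to 76.2) there, against 27.4% (16.9 to 40.2) in the library labelled WT. In HFD SAT it took 9.0% in WT and 6.55% in KO, where Iglc2 led with 666 and 564 counts.

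HFD and tissue were compared over the 2 libraries of each group, with a gene called apart where both libraries of 1 group lay at least 2-fold from both of the other. In HFD SAT, 4 of the 10 genes lay below chow SAT (Ighg2b, Ighg3, Iglc1 and Jchain) and 0 above, where 5.17% of the 16622 genes measured lay below and 2.03% above. The nearest libraries were 2.99 apart on the log2 scale for Ighg2b, 2.44 for Ighg3, 1.49 for Jchain and 1.07 for Iglc1. Ighm, Ighd, Igha, Ighg1 and Igkc were also lower in both HFD libraries, by less than 2-fold between the nearest ones, and Ighg2c overlapped. The median of the 10 genes was 2.11 lower on HFD (log2), beside 0.24 lower for all genes measured. The summed B cell identity genes were 2683 and 2838 CPM on HFD and 3856 and 3020 CPM on chow. Other cell type markers were also lower on HFD: lymph node stroma genes summed to 7.83 and 13.3 CPM against 123 and 36.8, mammary epithelial genes to 12.2 and 26.2 against 231 and 164, and macrophage genes to 722 and 416 against 2090 and 853. Their part in the lower immunoglobulin genes was not tested. Under DESeq2 size factors or upper quartile scaling, 3 of the 10 genes lay below chow SAT.

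In VAT, 2 of the 10 genes lay below chow SAT, Ighd by 3.87 and Ighg2c by 1.21 between the nearest libraries (log2), and 0 above, where 6.02% of all genes lay below and 11.5% above. The B cell identity sum in VAT, 696 and 654 CPM, was also below both SAT chow libraries, and its part in these gaps was not tested. In muscle, Ighg1 lay above chow SAT by 2.54 and Ighg3 below by 3.31 (log2), 1 of 10 genes each way, where 7.16% and 3.31% of all genes did. Against VAT, 4 of 10 genes lay above in muscle (Ighd by 2.76, Ighg1 by 3.84, Ighg2b by 1.19 and Ighg2c by 2.38) and 0 below, with 7.06% and 8.52% for all genes. The neutrophil list summed to 25680 and 29480 CPM in muscle and to 463.8 CPM at most elsewhere, and its part in the muscle values was not tested.

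KO was compared with WT within each pair by the log2 ratio of CPM, with a 95% interval from the counts alone. A gene was called where the whole interval lay beyond 2-fold. In HFD SAT, 3 of the 10 genes were higher in KO and 1 lower, where 12.7% and 11.1% of 15839 genes were. Igha went from 17 to 295 counts, 3.17 on the log2 scale (2.49 to 3.99). Ighg2b went from 48 to 547 counts, 2.58 (2.16 to 3.04), and Ighg3 from 25 to 270, 2.49 (1.91 to 3.16). Ighg1 went the other way, from 108 to 12 counts, -4.02 (-5.09 to -3.23). The genes with the most counts changed little: Ighm by 0.15 and Igkc by -0.09.

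In chow SAT, Ighg3 was the 1 gene of the 10 that was higher in KO, and Ighg1 and Ighg2c were lower, where 19.0% and 11.7% of 16908 genes were called. Ighg3 went from 1919 to 20161 counts, 3.39 (3.32 to 3.46). Ighg2c went from 4482 to 1563 counts, -1.52 (-1.61 to -1.44), and Ighg1 from 878 to 353, -1.32 (-1.50 to -1.14). The other 7 genes had values between -1.05 for Igha and -0.38 for Igkc. The sums of T cell, macrophage and neutrophil markers were lower in this KO library as well. The T cell list summed to 4221 CPM in WT and 2113 CPM in KO, with 6 of 10 genes called lower and 1 higher. The gene called higher was Cd28, named after its values were seen, which went from 116 to 424 CPM. The macrophage list summed to 2090 and 853 CPM with 5 of 9 genes called lower, and the neutrophil list to 273.9 and 73.7 CPM with 6 of 7. Lymph node stroma genes summed to 123 and 36.8 CPM and mammary epithelial genes to 231 and 164 CPM. The part of these cells in the Ighg1 and Ighg2c values was not tested. Of all called genes, 62.0% were higher in KO by TMM and 77.5% by library totals, under which Ighg1 was no longer called.

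In VAT, 7 of the 10 genes were higher in the library labelled KO and 0 lower, where 2.40% and 2.09% of 16439 genes were. Iglc1 went from 17 to 692 counts, 4.71 (4.05 to 5.53), Ighg3 from 76 to 2367, 4.35 (4.03 to 4.71), and Igha from 227 to 6568, 4.25 (4.06 to 4.45). Ighg1 went from 0 to 291 counts and was at least 63.8-fold higher. Jchain, Ighg2b and Igkc had values of 2.37, 2.11 and 1.91. Ighm, at 0.78 (0.74 to 0.83), and Ighd, at -0.24 (-0.48 to -0.00306), stayed within 2-fold. The median of the 10 genes was 2.24, also with Ighg1 at its bound, beside 0.01 for all genes measured.

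The B cell identity genes did not move with this gap: 0 of 18 were called in VAT, their median log2 ratio was -0.03, and their sum was 696 CPM in the library labelled WT and 654 CPM in the library labelled KO. Heavy chain CPM per B cell identity CPM was 0.964 and 2.87, and the value in the library labelled KO was the highest of all 8 libraries. Of the 14 plasma cell and antibody secretion genes, 0 were called in VAT, their median log2 ratio was 0.22, and their sum was 859 and 882 CPM. The highest of them were Slamf7 with 223 and 190 CPM, Xbp1 with 199 and 213 and Irf4 with 155 and 128. Below these in level, Tnfrsf17, Creld2 and Eaf2 were lower in the library labelled KO. The rest of the list was higher there, Fkbp11 by 1.40 and Mzb1 by 0.77 (log2). These genes of lower level were named after their values were seen. Of all genes, 2.40% were called higher and 2.09% lower, and the 0 calls in both lists are close to these shares. The lymph node stroma list summed to 40.0 CPM in the library labelled WT and 4.57 CPM in the library labelled KO, with 2 of 2 measured genes called lower. These were Cxcl13, from 34.3 to 4.27 CPM, and Ccl21a, from 5.60 to 0.295 CPM. Of the same list, Glycam1 had 0.112 and 0 CPM there and Chst4 had 0 in both libraries. The part of these genes in the isotype values was not tested.

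**Figure D3:**
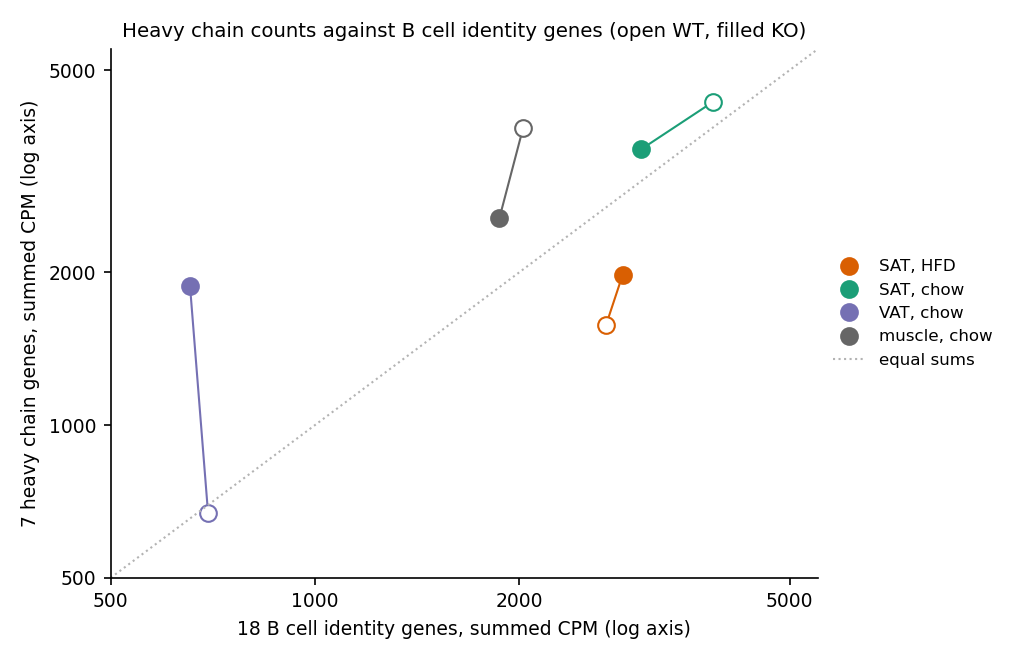
Summed CPM of the 7 heavy chain genes (vertical, log axis) against summed CPM of 18 B cell identity genes (horizontal, log axis), with open points for WT, filled points for KO, a line joining each pair and a dotted line of equal sums. The VAT pair moves from 671 to 1880 CPM of heavy chain at nearly the same B cell sum.

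In muscle, Igha and Ighg3 were higher in KO and Ighg1 and Ighg2c lower, where 2.75% and 2.05% of 16967 genes were called. Igha went from 1430 to 3377 counts, 1.497 (1.41 to 1.59), and Ighg3 from 28 to 161, 2.76 (2.20 to 3.42). Ighg1 went from 19218 to 4257 counts, -1.92 (-1.97 to -1.87), and Ighg2c from 13044 to 2916, -1.90 (-1.96 to -1.85). Ighm, at 0.07, stayed close to its WT level. Ighd, at -0.14, and Jchain, at -0.09, took values of the opposite sign under library totals. Of the macrophage list, 4 of 9 genes were called lower in this KO library, C1qb from 77.3 to 24.6 CPM among them. Lyz2, the highest of the list, had 4757 CPM in WT and 4890 CPM in KO, and the list summed to 5446 and 5209 CPM. The part of macrophage genes in the IgG values was not tested. By TMM 57.3% of called genes were higher in KO, and by library totals 70.2%.

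**Figure D4:**
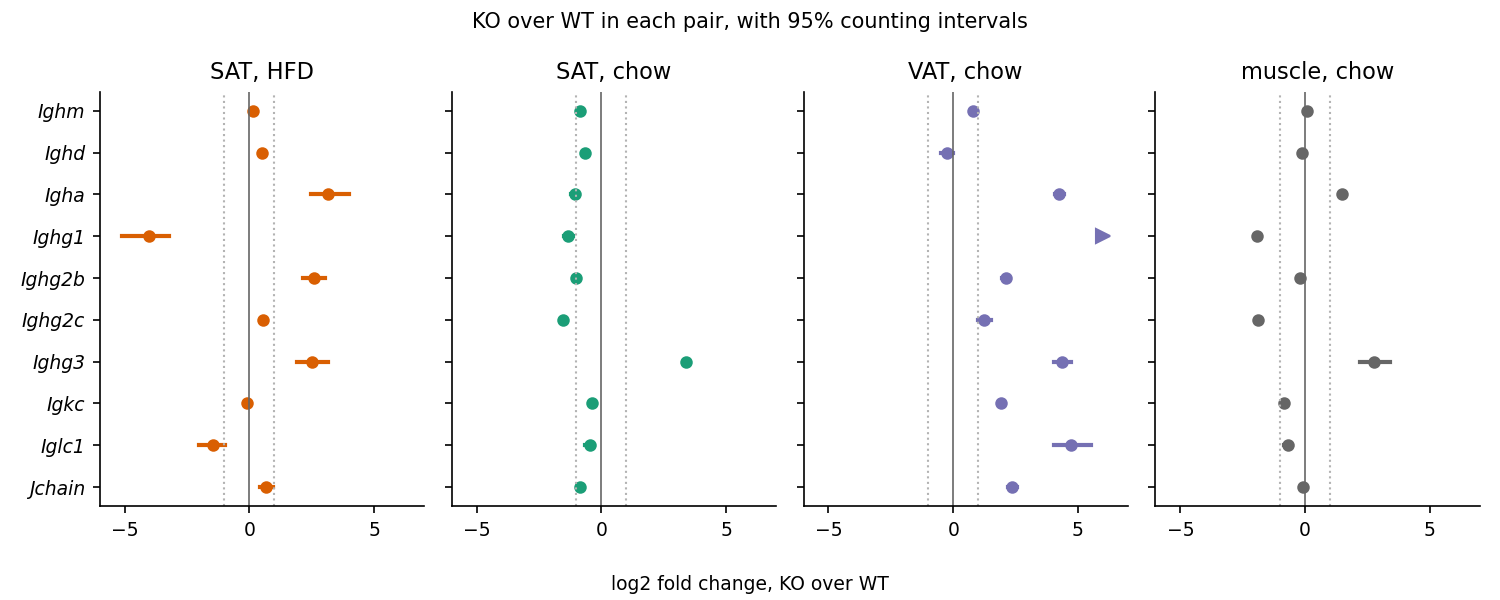
Log2 fold change of KO over WT for the 10 genes in each of the 4 pairs, with 95% counting intervals as bars, dotted lines at 2-fold and a triangle where the value is a lower bound because WT had 0 counts. Ighg3 lies right of 2-fold in all 4 panels, and Ighg1 lies left of it in 3 panels and right in VAT.

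Across the pairs, Ighg3 was called higher in KO in 4 of 4, and in 3 of 3 without VAT. Of 13598 genes measured in all pairs, 7 (0.0515%) were called higher in KO in each, and without VAT 24 of 14150 (0.170%). Igha was called higher in 3 pairs and had a value of -1.05 in chow SAT. Ighg1 was called lower in 3 pairs and higher in VAT. Ighg2b was called higher in HFD SAT and in VAT, and Ighg2c lower in chow SAT and in muscle. Ighm and Ighd were called in 0 of 4 pairs, although their counting intervals excluded 0 in each.

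With tissue and diet as a block, edgeR's quasi-likelihood fit across the 4 pairs gave Ighg3 a log2 fold change of 3.30 (SE 0.354) and Igha 1.99 (SE 0.85), with the other 8 genes between -1.15 (SE 1.37) for Ighg1 and 0.84 (SE 0.632) for Ighg2b. Since the genes were chosen with these ratios known, the values are a description. Of all 16971 genes in this fit, 1 (0.00589%) was called at a Benjamini-Hochberg adjusted p of 0.05. This count is given for the fit as a whole and is no test of the 10 genes.

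Variable segments are separate genes that were not used to choose the 10, and their counts describe how varied the antibody transcripts of a library were. An antibody transcript joins a variable segment to a constant gene, so segment counts are not independent of the counts of the 10 genes. They are a description as well. The table holds 185 Ighv and 160 Igkv segments. The segments that led in the 2 libraries with the highest Ighg3 and Igha shares are shown as the last coding bases of their variable exons (GRCm38, GENCODE M21), with in-frame cysteine codons in capitals. The first pair led in SAT of KO on chow and the second in the VAT library labelled KO.
Ighv2-2, chr12:113588267-113588565, minus strand: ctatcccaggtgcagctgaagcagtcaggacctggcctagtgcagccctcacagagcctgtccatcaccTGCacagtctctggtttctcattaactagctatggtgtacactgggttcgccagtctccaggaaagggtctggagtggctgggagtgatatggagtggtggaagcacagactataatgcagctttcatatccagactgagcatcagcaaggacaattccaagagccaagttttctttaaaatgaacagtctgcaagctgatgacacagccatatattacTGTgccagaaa
Igkv8-24, chr6:70216858-70217156, minus strand: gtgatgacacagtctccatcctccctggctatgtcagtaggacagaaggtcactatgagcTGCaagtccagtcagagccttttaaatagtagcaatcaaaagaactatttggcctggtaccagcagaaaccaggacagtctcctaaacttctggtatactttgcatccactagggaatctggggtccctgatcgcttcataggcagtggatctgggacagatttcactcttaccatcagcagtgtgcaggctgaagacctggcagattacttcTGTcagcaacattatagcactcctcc
Ighv8-12, chr12:115647945-115648242, minus strand: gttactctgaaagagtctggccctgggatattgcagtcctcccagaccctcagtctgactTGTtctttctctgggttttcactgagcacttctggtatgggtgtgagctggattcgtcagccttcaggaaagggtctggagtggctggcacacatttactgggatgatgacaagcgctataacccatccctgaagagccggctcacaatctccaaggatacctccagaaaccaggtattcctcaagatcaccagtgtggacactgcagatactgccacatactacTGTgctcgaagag
Igkv14-126, chr6:67896347-67896642, plus strand: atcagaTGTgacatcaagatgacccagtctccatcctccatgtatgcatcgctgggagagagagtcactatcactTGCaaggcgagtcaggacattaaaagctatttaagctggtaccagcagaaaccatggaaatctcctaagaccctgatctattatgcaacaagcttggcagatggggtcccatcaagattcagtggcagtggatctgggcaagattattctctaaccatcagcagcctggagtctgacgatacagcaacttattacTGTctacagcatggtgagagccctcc
Of their 50-base windows, 55.4% for Ighv2-2 and 18.5% for Ighv8-12 also occur in other Ighv genes, and 0 for Igkv8-24 and Igkv14-126. These are reference sequences, and no read or rearranged transcript was examined.

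In SAT of KO mice on chow, Ighv2-2 held 4189 of 9376 Ighv counts, 44.7% (43.7 to 45.7), and Igkv8-24 held 4748 of 11011 Igkv counts, 43.1% (42.2 to 44.1). In SAT of WT on chow the same segments held 3.20% (2.84 to 3.59) and 1.35% (1.17 to 1.56). There the most used segments were Ighv1-81, with 5.83%, and Igkv1-117, with 6.19%. The next segments in the KO library were Ighv1-26 with 5.18% and Igkv3-2, named after its values were seen, with 5.42%. The library with Ighg3 at 34.8% of heavy chain counts also had the highest share for a single Ighv and a single Igkv segment. A link between these shares was not tested.

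Ighv2-2 and Igkv8-24 had higher shares in the VAT library labelled KO than in the library labelled WT. Ighv2-2 held 9.85% (8.97 to 10.8) of Ighv counts there and 2.78% (1.75 to 4.18) in the library labelled WT, and Igkv8-24 held 7.30% (6.64 to 8.00) and 0.437% (0.142 to 1.02) of Igkv counts. In muscle, Ighv2-2 held 0.969% in WT and 1.97% in KO, and Igkv8-24 2.89% and 5.65%. In HFD SAT, Ighv2-2 had 0 counts in both libraries, where the exact intervals allow shares of up to 0.344% in WT and 0.1495% in KO. The 3 libraries with most Ighv2-2 counts, SAT of KO on chow (4189), the VAT library labelled KO (423) and SAT of WT on chow (284), were also the 3 with most Ighg3 counts (20161, 2367 and 1919), in the same order. These counts are not scaled for library depth, a link between the 2 genes was not tested, and the shared order did not hold further down. SAT of KO on HFD had 270 Ighg3 counts and 0 of Ighv2-2. Muscle of WT and KO had 116 and 98 Ighv2-2 counts and 28 and 161 Ighg3 counts.

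The VAT library labelled KO, with its high Igha, had its own leading segments. Ighv8-12 held 916 of 4295 Ighv counts, 21.3% (20.1 to 22.6), against 0 of 792 in the library labelled WT, where the exact interval allows up to 0.465%. Igkv14-126 held 19.4% (18.4 to 20.4) against 8.14% (6.62 to 9.88), and Igkv8-27, named after its values were seen, was almost level with it at 18.4% (1065 counts). Ighv11-2, named here after its values were seen, came next among Ighv segments with 10.7% (9.76 to 11.6) against 4.29% (2.99 to 5.95), and 38.6% of its 50-base windows also occur in Ighv11-1. The pair of Ighv11-2 and Igkv14-126 is known from B-1 cell antibodies to phosphatidylcholine, but these counts do not show which heavy and light chains were paired. Of lambda segment counts, Iglv1, the segment usually joined to Iglc1 or Iglc3, held 1048 of 1058, 99.1% (98.3 to 99.6), against 45 of 72, 62.5% (50.3 to 73.6).

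In HFD SAT, WT and KO shared their leading segments. Ighv1-76 held 29.9% (27.2 to 32.8) of Ighv counts in WT and 14.0% (12.7 to 15.4) in KO, and between 0.489% and 1.01% in the other 6 libraries. Igkv10-96 held 19.1% (17.5 to 20.9) and 17.8% (16.5 to 19.2) of Igkv counts. In muscle the leaders were Ighv1-82 in WT, with 13.3%, and Ighv1-26 in KO, with 8.20%. The effective number of Ighv segments (the inverse of the summed squared shares) was lowest in SAT of KO on chow, at 4.79, and highest in SAT of WT on chow, at 38.7. In the VAT pair it was 18.7 in the library labelled WT and 10.8 in the library labelled KO, and in muscle 17.2 in WT and 32.1 in KO.

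**Figure D5:**
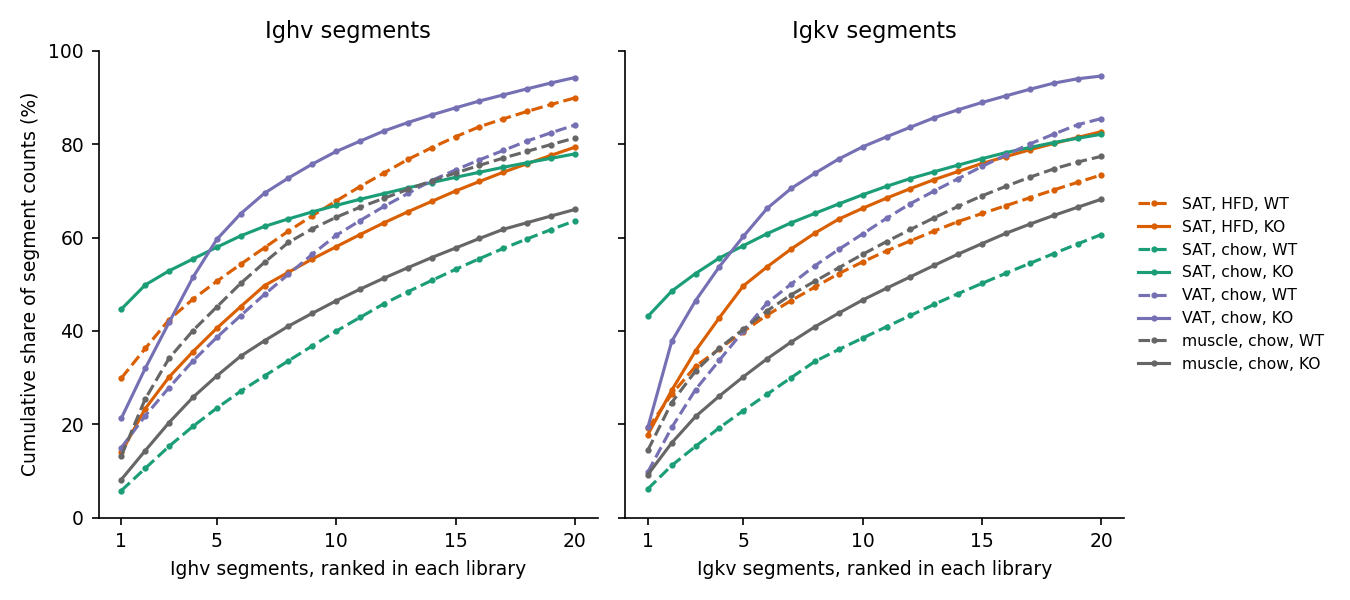
Cumulative share (%) of Ighv counts (left) and Igkv counts (right) held by the 20 most used segments, ranked within each library, with dashed lines for WT and solid lines for KO and colours for tissue and diet. SAT of KO on chow starts at 44.7% and 43.1% with its first segment, and SAT of WT on chow starts lowest, at 5.83% and 6.19%.

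Of the class switch machinery genes measured, 1 of 12 was called higher and 0 lower in KO in HFD SAT (12.7% and 11.1% of all genes). In chow SAT 0 of 13 were higher and 2 lower (19.0% and 11.7% of all genes), in VAT 0 of 11 were called (2.40% and 2.09%), and in muscle 1 of 12 was higher and 1 lower (2.75% and 2.05%). Of the plasma cell genes, 2 of 14 were called higher and 0 lower in chow SAT, 1 of 13 higher and 2 lower in HFD SAT, and 0 in VAT and muscle, beside the same shares of all genes. In chow SAT Irf4, a factor of both activated B cells and plasma cells, went from 62.2 to 352 CPM (log2 2.50). Xbp1, which expands the secretory machinery, had log2 values between -0.29 and 0.11 in the 4 pairs. Tnfrsf17, a receptor of plasma cells named after its values were seen, had 3.36 CPM at most and was listed at 0 in both SAT HFD libraries and muscle of WT. Across the pairs, edgeR called 0 of the 130 genes of all lists at an adjusted p of 0.05, with 8 at an unadjusted p of 0.05, and DESeq2 called 0. Of all 16971 genes in the edgeR fit, 279 had an unadjusted p under 0.05. Of the 8 list genes, 5 were macrophage genes, each lower in KO.

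Among the signals that steer switching, 3 of 10 measured ligand genes were called higher in KO in chow SAT, where 19.0% of all genes were, and 3 of 10 lower in HFD SAT, where 11.1% were. Tgfb1, which favours switching to IgA, had 471 and 532 CPM in VAT and between 249 and 323 CPM elsewhere, and 0 of 10 ligand genes were called in VAT. Il21r and Il4ra, receptors of cytokines that drive switching, had 205 and 468 CPM and 286 and 618 CPM in chow SAT, 1.19 and 1.11 on the log2 scale. In muscle their values were -0.90 and -0.80. Ifngr1 and Tgfbr2 had 1.02 and 0.64 in chow SAT, and -0.57 and -0.40 in muscle. Tnfrsf13b, Tnfrsf13c and Cd40 of the receptor list, named after their values were seen, were lower in KO in chow SAT, at -1.51, -1.003 and -0.624. Il5ra, also named after its values were seen, had 0.303 there. Of the receptor list, 2 of 8 genes were called higher and 1 lower in chow SAT, and 0 in the other pairs. Of all genes in chow SAT, 19.0% were called higher and 11.7% lower. Of 5 genes associated with B-1 cells, 0 were called in VAT, where 2.40% of all genes were called higher and 2.09% lower. Their median log2 ratio there was -0.18, and their sum was 273.9 and 251.1 CPM. Cd5 had 14.8 and 23.4 CPM, and the other genes of the list were lower in the library labelled KO.

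The genes whose pattern over the 8 libraries was most like each isotype were taken by the Pearson correlation of log2 CPM, over 16806 genes that are no immunoglobulin segments. These libraries share depth and tissue, and the values are a description. For Ighd they were Fcer2a (r = 0.998), H2-Ob (0.995) and Ccr6 (0.992), all known from mature B cells, Fcer2a also standing in the B cell identity list. Fcer2a had 164, 189, 353 and 199.7 CPM in the SAT libraries, 7.61 and 6.34 CPM in VAT, and 83.5 and 84.8 CPM in muscle. For Ighm they were Elp3 (0.984), Spint2 (0.976) and Csnk1g2 (0.975), and for Ighg2b Gopc (0.971), Hrh2 (0.965) and Wdr95 (0.963). For Igkc they were Rpl36a-ps1 (0.957), Atg4b (0.933) and Eif4enif1 (0.925). For Igha they were Gm5112 (0.955), Tcea1-ps1 (0.943) and Hebp1 (0.938), and for Jchain Echdc3 (0.982), Hoxc9 (0.977) and Gfi1b (0.974). Of the genes most like Jchain, each had 1.995 CPM or less in every library, where counting error is large.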

How the data were processed

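Read counts per Ensembl gene of mG+ cells were deposited by the authors as whole numbers with no normalization. The submitters' processing notes name HISAT2 2.0.5 and GRCm38. The counting program, read length and strand setting are not given in the sources used here. Libraries were scaled by TMM (edgeR 4.0.16, factors 0.877 to 1.14). Log2 ratios within a pair used a prior count of 0.5, a mean of at least 10 counts, and the exact conditional binomial 95% interval, which reflects counting error alone. Within pairs there was no test. Across pairs, edgeR's robust quasi-likelihood test had tissue and diet as a block, with DESeq2 1.42.0 as an alternative. In levels and ratios, a count of 0 was bounded at 3 counts, and in shares by the exact binomial interval. The steps were tested on simulated data (R 4.3.3, SciPy 1.17.1). With a simulated dispersion (spread beyond counting error) of 0.1, the fit across pairs recovered 97% of 4-fold and 100% of 8-fold changes. At a dispersion of 0.4 it recovered 3.5% and 61.5%. A low number of calls across the pairs therefore does not show that few genes changed.

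The members and the 14 lists (138 genes) were chosen with earlier results of these data known. Beside the members, the text names up to 4 genes of highest mean CPM per list, the 3 genes closest to 6 members by Pearson correlation, and each library's most used Ighv and Igkv segment. The alternatives were other scalings, priors, filters, gene length, denominators, and each pair left out.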

Additional observations from a re-analysis of the deposited data

Results flagged for a closer look

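Ighg1 went opposite ways in different pairs, each beyond 2-fold: it was higher in the VAT library labelled KO and lower in KO in HFD SAT, chow SAT and muscle. The log2 ratios in VAT and in HFD SAT, with the 0 counts of the library labelled WT set to 3, lay 10.1 apart. The difference was not tested, since each pair has 1 library per genotype, and the Tert counts in VAT are too few to check its labels. Without VAT, Ighg1 was lower in KO in 3 of 3 pairs. No group had the number of samples needed to look for a sample far from the others.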

How the results depend on the processing

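Of 160 log2 ratios of the 10 genes within pairs under other scalings and a prior count of 5, 115 stayed within their counting interval and 43 left it without a change of sign. In muscle, library totals turned Ighd to 0.0285 and Jchain to 0.0760. Library totals moved the median of all genes to 0.23 in chow SAT, 0.16 in muscle and 0.12 in HFD SAT (log2), and DESeq2 size factors moved it to 0.11 in chow SAT. With library totals, 1 of the 10 genes was lower in KO in chow SAT, and 2 lay below chow SAT in muscle, as with upper quartile scaling. With DESeq2 size factors and with upper quartile scaling, 3 of the 10 lay below chow SAT on HFD in place of 4 (tissue alternatives were added after seeing the data).

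Per kilobase of gene length, the share of the leading isotype by counts was 61.2% (WT) and 54.0% (KO) for Ighm in HFD SAT, 59.1% and 43.9% in chow SAT, 83.2% and 57.0% in VAT, 23.0% for Ighg1 in muscle of WT, where Ighg2c then led with 30.5%, and 48.3% for Ighm in muscle of KO. Without Ighd these shares were 79.6%, 72.6%, 67.7%, 44.5%, 85.0%, 50.6%, 32.0% and 48.1%. With Iglc1, Iglc2 and Iglc3 together, the lambda share was 15.6%, 8.81%, 9.98%, 6.93%, 2.93%, 7.46%, 5.51% and 7.67% in the same order, and the VAT library labelled KO was then no longer highest. Per kilobase the Iglc1 share was 2.16% and 2.04% in chow SAT, 6.48% in the VAT library labelled KO, and 3.42% and 3.82% in muscle.

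Across the pairs, 1 gene was called in edgeR, 41 with genes of at least 1 count in total, 19 with DESeq2, 0 without the block, and between 0 and 2 with a pair left out (2 without muscle, 0 without VAT). The causes of these differences were not tested. The 10 genes were chosen on these ratios, so calls among them under each setting would be no test and are not listed here. Counting error limits the low genes most, such as Ighg1 with 12 counts in SAT of KO on HFD.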

Other observations

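Fc receptors bind the constant regions. The 12 immunoglobulin receptor genes summed to 1547 and 1774 CPM in VAT, and to between 379 and 811 CPM in the other libraries. The macrophage list, which marks cells that carry many Fc receptors, summed to 14630 and 14430 CPM in VAT and to 5446 CPM at most elsewhere, and its part in the receptor sum was not tested. Of the receptor genes, Fcgrt, which recycles IgG, had 385 and 507 CPM in VAT and between 45.4 and 86.5 CPM elsewhere, while Fcmr, the IgM receptor of lymphocytes, had 14.4 and 15.6 CPM in VAT and between 96.9 and 412 CPM elsewhere. In chow SAT, 5 of the 12 were lower in KO and 1 higher, where 11.7% and 19.0% of all genes were and the macrophage list went from 2090 to 853 CPM with 5 of 9 genes lower, and in the other pairs 0 of the measured genes were called.

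Ighe, the IgE constant gene, which is not among the 10, had 144 and 29 counts in chow SAT and 323 and 54 in muscle (WT and KO), and 0 in both VAT and both SAT HFD libraries. It was lower in KO in both pairs in which it was measured, by -2.30 (-2.95 to -1.73) and -2.31 (-2.77 to -1.90) on the log2 scale.

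Heavy chain joining segments were thinly counted. Ighj4 held 83.7% of Ighj counts in SAT of KO on HFD (175 counts) and Ighj3 59.1% in WT (55 counts), against 0 counts of Ighj3 in KO.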
